A study of Mus musculus with 42 samples.

Results

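The respiratory chain and ATP synthase of the liver were followed here through the transcripts of their nuclear-encoded subunits. Members were all genes measured by a probe set with 1 gene symbol whose symbol starts with Ndufa, Ndufb, Ndufc, Ndufs, Ndufv, Sdha, Sdhb, Sdhc, Sdhd, Uqcr, Cox4, Cox5, Cox6, Cox7, Cox8 or Atp5. Symbols starting with Ndufaf or ending in -ps were left out. This gave 81 of the 17989 genes measured, and a gene with several probe sets (15 of the 81) was represented by the brightest. By their known place, 31 belong to complex I, 4 to complex II, 8 to complex III, 18 to complex IV and its tissue isoforms and relatives, and 16 to the ATP synthase. The prefix rule also took in 4 assembly factors of complex II (Sdhaf1 to Sdhaf4). Subunits measured only by probe sets that carry several symbols, or not found under these symbols, among them Ndufb4, Cox4i2 and Atp5a1, were not analysed here.

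All animals were wild-type (WT) male mice of the inbred strain C3HeB/FeJ, single-housed and random-fed, and total liver RNA was hybridised to Affymetrix whole-transcript arrays. The control group held 18 arrays, from mice fed a low-fat diet (LFD) for up to 21 days and pooled over ages of 15 to 17 weeks. The other groups were 8 arrays each of mice on a high-fat diet (HFD) for 7 days (15 weeks old), 14 days (16 weeks) and 21 days (17 weeks), so the mice were older the longer they had been on the diet. Array numbers in the labels are not tied to animals, and p-values therefore measure the spread among arrays, which can include technical spread. The title of the series places changes of membrane lipids and mitochondrial membrane proteins before insulin resistance of the liver, and the comparisons below ask whether the transcripts of the inner-membrane complexes changed over the same weeks.

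Complex I (NADH dehydrogenase) and complex II (succinate dehydrogenase) pass electrons to ubiquinone, complex III passes them on to cytochrome c, and complex IV hands them to oxygen. Complexes I, III and IV pump protons across the inner mitochondrial membrane, and the ATP synthase lets them back through its c ring to drive ATP synthesis in its F1 head. In liver this machinery oxidises the NADH and reduced flavins produced by fatty acid oxidation and the citric acid cycle. A few subunits are encoded in mitochondrial DNA and the rest in the nucleus, where the factors NRF1 and GABP (a member of the ETS family) are textbook activators of their genes.

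The promoters of the member genes showed what they share in sequence. RefSeq promoter windows (assembly GRCm38.p6, 250 bases before to 50 after the start) were found for 69 of the 81 genes, in 74 windows. The NRF1 motif (GCGCA, any base, then GCGC, on either strand) was in 25.7% of the member windows and in 4.60% of all 32851 windows. The ETS and GABP motif CCGGAAG was in 27.0% of the member windows and 8.86% of all. By gene, NRF1 was in 18 of the 69 and in 5.19% of all 27025 genes, and the ETS and GABP motif in 20 and 9.93%. Of the 69 genes, 33 held a match to at least 1 of these motifs and 5 held both (Atp5h, Atp5k, Cox6a1, Sdhaf3 and Sdhd). The shares of all genes with either or both were not counted. YY1 (AAGATGG) was in 12.2% against 6.34%, and the extended site of the estrogen-related receptors (ERR: T, any base, then AAGGTCA) in 2.70% against 1.28%. SP1 (GGGGCGGGG) was in 13.5% against 11.4% and TATAAA in 12.2% against 13.6%. The PPAR direct repeat, was in 0 member windows and 0.0791% of all windows. Member windows were richer in G and C (median 58.0%) than all windows (52.7%), and a match to letters was not taken as a bound site.

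**Figure D1:**
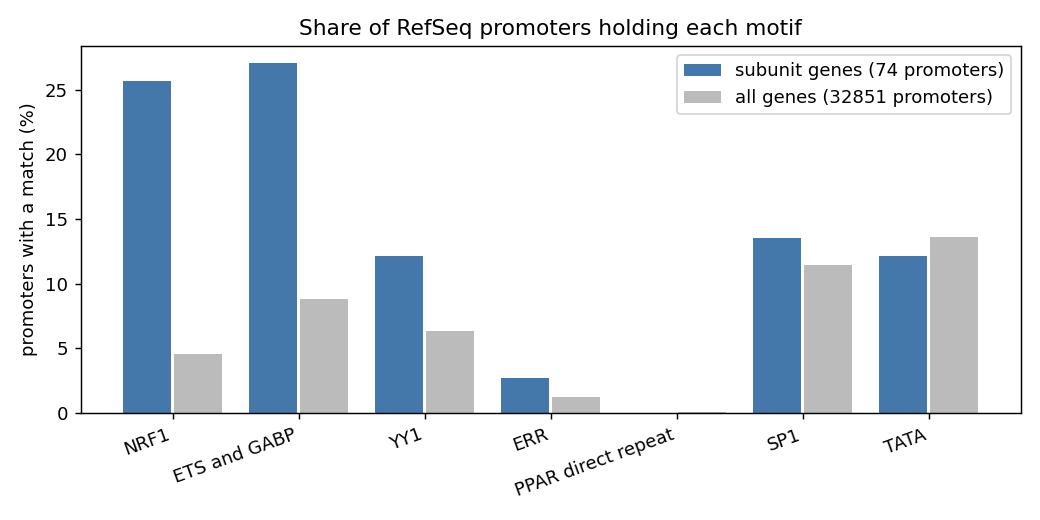
Share (%) of RefSeq promoter windows that hold each motif on either strand, for the 74 windows of the subunit genes (blue) and all 32851 windows (grey). NRF1 and the ETS and GABP motif reached 25.7% and 27.0% of the subunit windows.

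The stretches before the start of 5 members are printed as examples of these matches, with every match to a searched motif in capitals. They were chosen as Ndufs5, the member with the largest change on the diet, Sdha, with 3 NRF1 matches, and Sdhd, Cox6a1 and Atp5h, with NRF1 and ETS matches together. All are on the minus strand of GRCm38.p6 and read 5′ to 3′ towards the gene, at chr4:123718187-123718436 (Ndufs5), chr13:74350241-74350490 (Sdha), chr9:50603850-50604099 (Sdhd), chr5:115348959-115349208 (Cox6a1) and chr11:115419920-115420169 (Atp5h).
Ndufs5: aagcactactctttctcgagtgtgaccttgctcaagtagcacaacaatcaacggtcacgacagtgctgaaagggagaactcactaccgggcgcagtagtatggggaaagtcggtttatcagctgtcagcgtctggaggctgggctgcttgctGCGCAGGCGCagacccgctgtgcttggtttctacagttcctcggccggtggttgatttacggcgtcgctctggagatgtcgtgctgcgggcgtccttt
Sdha: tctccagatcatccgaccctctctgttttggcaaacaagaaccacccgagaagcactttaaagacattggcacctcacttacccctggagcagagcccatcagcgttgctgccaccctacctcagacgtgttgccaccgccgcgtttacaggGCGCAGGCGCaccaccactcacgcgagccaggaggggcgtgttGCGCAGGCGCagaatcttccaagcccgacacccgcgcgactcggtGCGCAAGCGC
Sdhd: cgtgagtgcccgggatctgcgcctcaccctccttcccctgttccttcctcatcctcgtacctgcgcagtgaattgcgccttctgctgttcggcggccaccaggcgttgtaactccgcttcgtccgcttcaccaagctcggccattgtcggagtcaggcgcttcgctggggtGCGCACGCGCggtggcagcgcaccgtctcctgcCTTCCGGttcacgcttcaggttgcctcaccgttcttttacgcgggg
Cox6a1: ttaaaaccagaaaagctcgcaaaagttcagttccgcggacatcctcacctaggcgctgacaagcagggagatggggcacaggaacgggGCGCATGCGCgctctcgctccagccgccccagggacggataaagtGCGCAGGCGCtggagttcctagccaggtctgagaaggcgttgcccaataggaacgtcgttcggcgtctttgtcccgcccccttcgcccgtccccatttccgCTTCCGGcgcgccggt
Atp5h: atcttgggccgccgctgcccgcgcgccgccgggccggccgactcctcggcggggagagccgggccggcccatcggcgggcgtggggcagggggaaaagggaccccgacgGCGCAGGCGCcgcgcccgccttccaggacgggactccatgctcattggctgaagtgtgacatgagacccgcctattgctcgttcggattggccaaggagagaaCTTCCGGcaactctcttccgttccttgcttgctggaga
Counted from the start, the NRF1 match of Ndufs5 began at -98, and those of Sdha at -98, -55 and -10. In Sdhd an NRF1 match at -79 was followed by the ETS match at -46. In Cox6a1 NRF1 matches at -162 and -117 preceded an ETS match at -16, and in Atp5h the pair lay at -141 and -38.

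Nearly all members were measurable in these livers. The 95th percentile of 929 olfactory receptor genes, a log2 level of 2.86, served as a background level, and 80 of the 81 members lay above it in their highest group, as did 70.0% of all genes. The exception was Cox7b2, a testis isoform. Cox8c, also of testis, lay at the edge, with a mean of 2.87 over all arrays and of 2.92 in its highest group. All 9 measured hepatocyte markers lay above it, with a mean of at least 11.38 on every array. Markers of pancreatic acinar cells were present to an unequal degree, and all 16 measured lay above background. Their mean ranged from 3.41 to 8.28 in controls and from 3.51 to 9.31 after 7 days. It ranged from 3.44 to 9.16 after 14 days and from 3.33 to 6.28 after 21 days. Against controls all 16 lay above 0 after 7 and 14 days (medians 0.76 and 0.63) and below 0 after 21 days (median -0.54), with 0 called. In bulk liver, fewer cells of a type and less RNA per cell cannot be told apart. The word "reanalysis" stands in the titles of all 18 control arrays and all 8 arrays of 21 days of HFD and in no other, so what it marks cannot be told apart from the diet for 7 or 14 days against controls, nor from time for 21 days against 7 or 14 days.

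The high-fat diet changed no subunit gene past the test at any time. In the limma fit over all genes, at a Benjamini-Hochberg adjusted p under 0.05, 0 of the 81 members were called after 7 days (1.4% of all genes were), 0 after 14 days (0.667% of all genes) and 0 after 21 days (0.7% of all genes). At an unadjusted p under 0.05 there were 4 members after 7 days (9.28% of all genes), 2 after 14 days (6% of all genes) and 1 after 21 days (6.66% of all genes). The F test over the 4 groups called 0 members (1.3% of all genes), and 2 had an unadjusted p under 0.05 (7.24% of all genes). With the mean of the acinar markers as a covariate the counts were again 0. With array weights, 2 members were called after 7 days, as given for each below, and the share of all genes called with them is not given here. The 95% limits of the change lay within 1.25-fold in either direction for 52, 56 and 54 of the 81 members after 7, 14 and 21 days, and within 1.5-fold for 80, 80 and 81. The limits of Ndufs5 were the exception at 7 and 14 days.

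**Figure D2:**
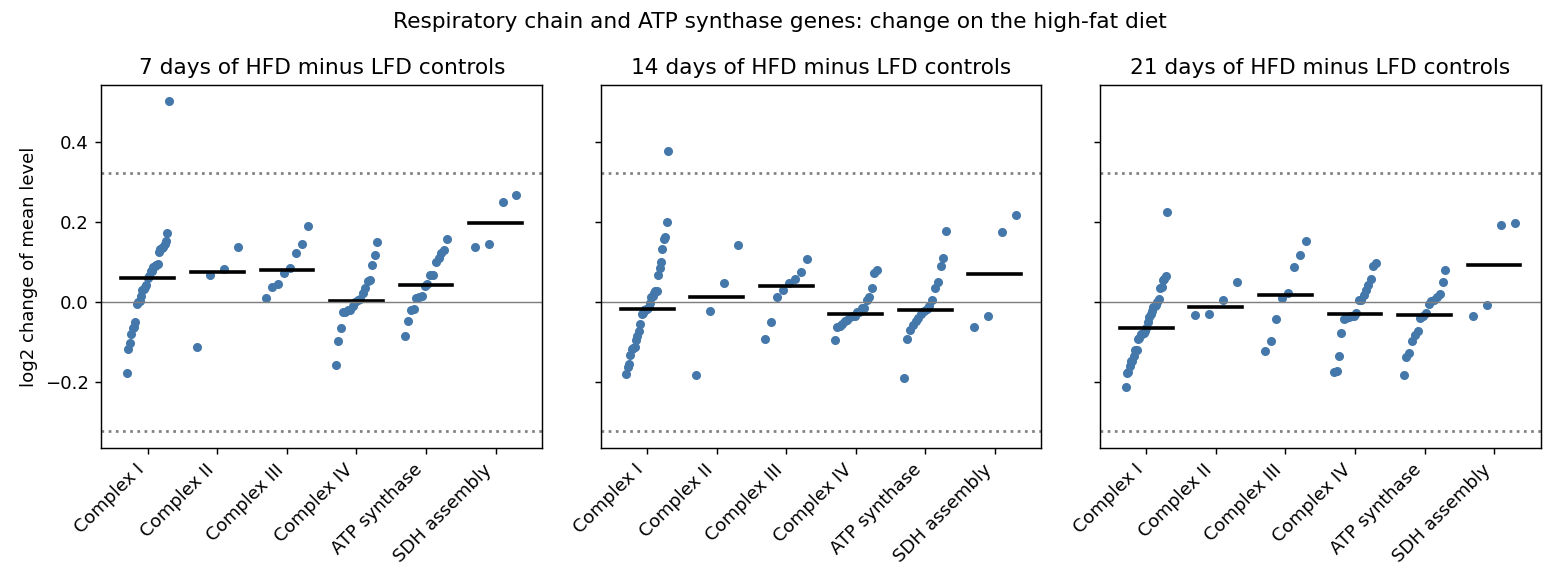
Change of each of the 81 genes (points) against LFD controls after 7, 14 and 21 days of HFD, on the log2 scale, by complex. Black bars are medians and dotted lines mark 1.25-fold, and Ndufs5 in complex I is the point above that line after 7 days (0.50) and 14 days (0.38).

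The median change of the 81 members was 0.05 on the log2 scale after 7 days, when 60 lay above 0, but after quantile normalization 41 did and the median was 4e-04. After 14 days the median was -0.02, with 34 members above 0, and after 21 days -0.03, with 31 above 0 and 41 after quantile normalization. After median centring 65, 34 and 28 members lay above 0 after 7, 14 and 21 days. The medians of all genes were -0.01, -0.005 and 0.008 without added scaling. The members' small common shift after 7 and 21 days was thus lost with quantile normalization and kept with median centring. After 14 days 34 members lay above 0 with either scaling.

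Complex I showed the widest range. Ndufs5, an accessory subunit of its membrane arm, had log2 levels of 5.31, 6.62 and 7.25 (lowest, median and highest) in controls, 6.65, 7.04 and 7.30 after 7 days, 6.50, 6.90 and 7.23 after 14 days and 6.28, 6.68 and 7.33 after 21 days. The groups overlapped, with all 8 arrays at 7 days and all 8 at 14 days above the mean of the controls, and every level under 6.28 was a control. Its change was 0.50 ± 0.16 (SE, adjusted p = 0.122 in limma) after 7 days, 0.38 ± 0.16 (adjusted p = 0.638) after 14 days and 0.22 ± 0.16 (adjusted p = 0.911) after 21 days. The low values came mostly from the controls numbered 1 to 9: controls 10 to 18 were higher by 0.47 ± 0.18 (adjusted p = 0.55 in limma). Against controls 1 to 9 alone the change after 7 days was 0.73 and was called (adjusted p = 0.0138), and the change after 21 days against controls 10 to 18 alone was -0.01.

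Its 6 core subunits, which carry the flavin and iron-sulfur clusters or lie beside them, stayed close to the controls. Median changes of the 6 were 0.05, 0.02 and -0.11 after 7, 14 and 21 days. Ndufv1, which binds NADH and flavin, differed by -0.06 ± 0.13 (SE), -0.03 ± 0.13 and 0.001 ± 0.13. Ndufs1, the large iron-sulfur subunit, differed by 0.13 ± 0.19, 0.01 ± 0.19 and -0.12 ± 0.19, with the widest error of the core. Ndufs8 differed by 0.17 ± 0.11, 0.09 ± 0.11 and -0.16 ± 0.11. The largest negative value was in the accessory subunit Ndufs6 at each of 7 and 21 days, at -0.18 ± 0.13 (adjusted p = 0.712 in limma) and -0.21 ± 0.13 (adjusted p = 0.861). Its levels overlapped: 6.86, 7.59 and 7.999 in controls against 6.93, 7.22 and 7.72 after 21 days.

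Complex II, which is also an enzyme of the citric acid cycle, had 0 of 4 subunits called at each time. The flavin subunit Sdha differed by 0.08 ± 0.10 (SE), 0.05 ± 0.10 and -0.03 ± 0.10 after 7, 14 and 21 days. The iron-sulfur subunit Sdhb differed by -0.11 ± 0.11, -0.18 ± 0.11 and 0.01 ± 0.11, and the membrane anchors Sdhc and Sdhd by 0.14 ± 0.11 and 0.07 ± 0.08 after 7 days.

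The assembly factors of complex II lay above 0 after 7 days in 4 of 4 cases, with a median of 0.20, and none was called. Of all 81 members 60 lay above 0 at that time, or 41 after quantile normalization. Sdhaf1, which helps insert the iron-sulfur clusters, had levels of 5.43, 6.06 and 6.36 in controls, 5.92, 6.28 and 6.80 after 7 days, 6.06, 6.21 and 6.34 after 14 days and 5.94, 6.22 and 6.51 after 21 days. On 3 of 8 arrays at 7 days and 3 of 8 at 21 days it was above every control. The changes were 0.25 ± 0.09 (SE, adjusted p = 0.227 in limma), 0.18 ± 0.09 (adjusted p = 0.852) and 0.19 ± 0.09 (adjusted p = 0.673). With array weights the change after 7 days was 0.28 and was called (adjusted p = 0.0256), and among the HFD arrays numbered 1 to 4 alone it was 0.42 (adjusted p = 0.0369), beside 0.07 (adjusted p = 0.896) among those numbered 5 to 8. After 21 days the same sets gave 0.33 and 0.05. Sdhaf4 differed by 0.27 ± 0.12, 0.22 ± 0.12 and 0.20 ± 0.12 and was dim, with controls between 2.82 and 3.76. Its other probe set did not follow the one used (r = -0.01 over 42 arrays).

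In complex III 8 of 8 members lay above 0 after 7 days, with a median of 0.08. Of all 81 members 60 did so, or 41 after quantile normalization, and of all 17989 genes 8310. Uqcrc2, a core protein of the complex, had levels of 9.59, 10.03 and 10.47 in controls and 9.78, 10.24 and 10.41 after 7 days. The range after 7 days lay within that of the controls, with a change of 0.19 ± 0.08 (SE, adjusted p = 0.457 in limma) after 7 days, 0.05 ± 0.08 after 14 days and 0.01 ± 0.08 after 21 days. With array weights the value after 7 days was 0.25 (adjusted p = 0.0276). Uqcrc1, the other core protein, differed by 0.05 ± 0.11, 0.08 ± 0.11 and 0.09 ± 0.11, and the Rieske iron-sulfur protein Uqcrfs1 by 0.09 ± 0.09, 0.06 ± 0.09 and 0.15 ± 0.09.

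Complex IV lay closest to the controls after 7 days, with a median of 0.003 over its 18 members. The median of its 10 usual nuclear subunits was 0.01, -0.02 and -0.01 after 7, 14 and 21 days, and their changes ran from -0.06 to 0.15 after 7 days. Cox4i1, the nuclear subunit that binds ATP as a regulator, differed by -0.02 ± 0.12 (SE), -0.02 ± 0.12 and -0.04 ± 0.12. Cox5b differed by 0.01 ± 0.07, -0.01 ± 0.07 and 0.02 ± 0.07, and Cox5a by -0.06 ± 0.10, -0.03 ± 0.10 and -0.13 ± 0.10. The 7 tissue isoforms and relatives (Cox6a2, Cox7a1 and Cox8b of muscle, Cox6b2, Cox7b2 and Cox8c of testis, and Ndufa4l2) had medians of -0.02, -0.04 and -0.03. Among them, Cox7a1 had levels of 3.36, 3.87 and 4.37 in controls and 3.38, 3.68 and 4.21 after 7 days, a difference of -0.16 ± 0.11. Cox6a2 differed by -0.17 ± 0.10 after 21 days (adjusted p = 0.846 in limma). Striated muscle markers had a mean between 3.39 and 4.76 on all arrays, with 9 of the 10 measured above background. They lay below 0 in 9 of 10 cases after 7 days (median -0.32, 2 at an unadjusted p under 0.05) and 10 of 10 after 21 days (median -0.21), with 0 called at both times, and their part in the values of Cox7a1 and Cox6a2 was not tested.

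In the ATP synthase 0 of 16 members were called. Atp5b, the catalytic beta subunit of F1, had levels of 10.98, 11.35 and 11.51 in controls, 11.17, 11.30 and 11.38 after 7 days, 11.11, 11.26 and 11.57 after 14 days and 11.06, 11.33 and 11.51 after 21 days. These ranges overlapped, and the range after 7 days lay within that of the controls. The differences of -0.02 ± 0.06 (SE), -0.02 ± 0.06 and 0.003 ± 0.06 had limits within 1.25-fold. Atp5c1, the rotating gamma subunit, differed by 0.02 ± 0.07, -0.04 ± 0.07 and -0.13 ± 0.07. Atp5o of the stalk differed by -0.05 ± 0.10, -0.09 ± 0.10 and 0.01 ± 0.10. The 3 genes of the c ring (Atp5g1, Atp5g2 and Atp5g3), which encode the same mature protein, had medians of 0.01, -0.03 and -0.005. Of the small membrane subunits, Atp5mpl differed by -0.19 ± 0.14 after 14 days and Atp5l by -0.18 after 21 days.

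Between the HFD times 0 members were called by limma in any comparison, against 0% of all genes for 14 against 7 days and 21 against 14 days, and 0.00556% for 21 against 7 days. At an unadjusted p under 0.05 there were 0 members for 14 against 7 days (2.51% of all genes), 1 for 21 against 14 days (Cox6a2, 3.97% of all genes) and 3 for 21 against 7 days (Ndufs8, Ndufb3 and Atp5h, 7.13% of all genes). The F test among the times called 0 as well (0.00556% of all genes), with 2 at an unadjusted p under 0.05 (4.4% of all genes). From 7 to 21 days the median change was -0.08 and 62 of 81 members lay below 0, whereas after quantile normalization the median was 0.007 and 43 lay above 0. After median centring 10 lay above 0, beside 19 without it. Without added scaling the change from 7 to 21 days ran from -0.33 for Ndufs8 to 0.25 for Cox7a1. These comparisons had larger errors, with 32 of 81 limits within 1.25-fold and 76 within 1.5-fold for 21 against 7 days.

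Calls on the diet were found among the genes that feed electrons into the chain. Of 20 measured carriers and entry enzymes, 2 were called after 7 days (1.4% of all genes), the same 2 after 14 days (0.667% of all genes) and 0 after 21 days (0.7% of all genes), when 3 had an unadjusted p under 0.05 (6.66% of all genes). Gpd2, the mitochondrial glycerol-3-phosphate dehydrogenase, had levels of 5.44, 6.18 and 6.82 in controls, 6.49, 7.23 and 7.52 after 7 days, 6.30, 6.89 and 7.31 after 14 days and 5.90, 6.86 and 7.33 after 21 days. It rose by 0.89 ± 0.16 (SE, adjusted p = 0.000452 in limma) after 7 days and 0.64 ± 0.16 (adjusted p = 0.0453) after 14 days, and was 0.60 ± 0.16 higher after 21 days (adjusted p = 0.0761). Prodh, proline dehydrogenase, had levels of 8.09, 8.74 and 9.30 in controls and 7.89, 8.28 and 8.52 after 7 days. It was lower by -0.46 ± 0.11 (adjusted p = 0.0191) after 7 days, -0.50 ± 0.11 (adjusted p = 0.0149) after 14 days and -0.40 ± 0.11 (adjusted p = 0.0987) after 21 days. The call of Gpd2 after 7 days held with any 1 array left out (adjusted p from 0.000168 to 0.00284) and was lost only among the HFD arrays numbered 5 to 8 (0.63, adjusted p = 0.298). The other 3 calls were less firm: each was lost among those arrays and with either set of 9 controls alone, and Gpd2 after 14 days (adjusted p = 0.0616) and Prodh after 7 days (adjusted p = 0.0534) were also lost after median centring. Gpd2 after 14 days lost its call without any of 21 of the 42 arrays. Prodh lost it after 7 days without array 1 or 7 of that group (adjusted p = 0.0874 and 0.0574), and after 14 days without array 1 or 2 (adjusted p = 0.0714 and 0.08). After 21 days calls were gained instead: Gpd2 passed with quantile normalization (adjusted p = 0.0288), with Malat1 (0.028) or the number group (0.0453) as a covariate and among the HFD arrays numbered 1 to 4 (0.0347). Prodh passed with Malat1 as a covariate (adjusted p = 0.0399) and among the HFD arrays numbered 1 to 4 (0.0293).

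**Figure D3:**
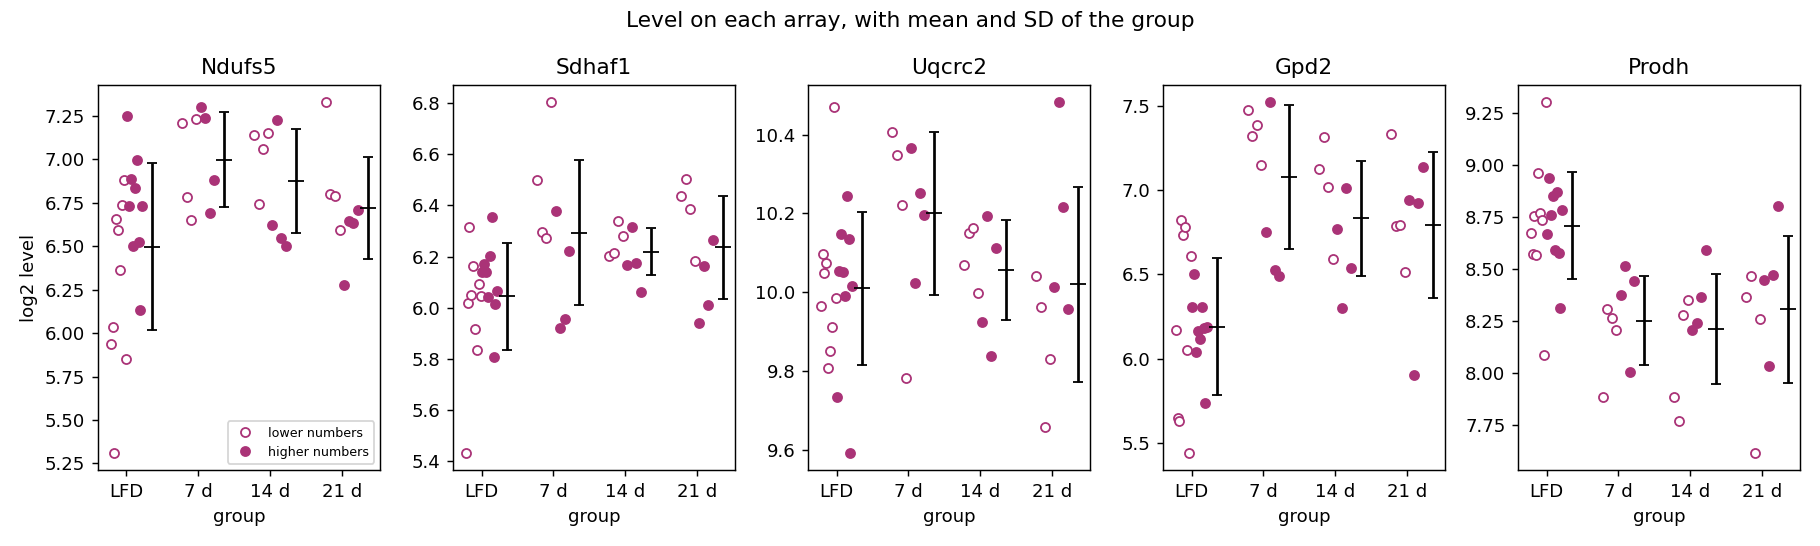
Log2 level on each array of 3 subunit or assembly genes (Ndufs5, Sdhaf1, Uqcrc2) and of Gpd2 and Prodh, by group, with the mean and SD beside the points. Open points are controls numbered 1 to 9 and HFD arrays numbered 1 to 4, and the groups overlap in every panel.

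The other lists of the pathway stayed below the threshold on the diet in the fit without added scaling. None of 29 assembly factors of the complexes, 14 transcriptional regulators (PGC-1, ERR, NRF1, GABP and the factors of mitochondrial DNA), 7 uncoupling and ADP/ATP exchange genes and 2 mitochondrially encoded genes (ND3 and COX2) was called after 7, 14 or 21 days. At an unadjusted p under 0.05 the assembly factors had 2, 2 and 3, the regulators 2, 0 and 1, and the others 0 each. The shares of all genes were 9.28%, 6% and 6.66%. After median centring 1 assembly factor, Cox19, was called higher after 7 days. Without it the change of Cox19 was 0.34 (adjusted p = 0.0569 in limma). Of 11 macrophage markers 3 were called higher after 7 days, beside 1.4% of all genes (Vsig4 by 0.64, C1qc by 0.46 and Cd68 by 0.44). After quantile normalization Cd68 alone was called. The lowest value was -0.07 (Marco), and the mean of the 11 was 5.004 to 5.66 in controls and 5.52 to 5.90 after 7 days. Their part in the values of Gpd2 and Prodh was not tested.

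Members had a higher median spread between arrays of the same group than all genes. The median SD within groups was 0.26 on the log2 scale for members and 0.21 for all genes, from 0.13 in Cox6a1 and 0.14 in Atp5b to 0.40 in Atp5e and 0.47 in Ndufs1. They also varied together: the median correlation of deviations from the group means over the 42 arrays was 0.21 for the 3240 pairs of members, with 72.3% above 0, and 0.001 for members with other genes. It was 0.37 among the 16 ATP synthase genes, 0.24 in complex III, 0.20 in complex I, 0.09 in complex IV and -0.18 in complex II. These pairs share arrays and their scaling, so the values are a description. Deviations from the group means also keep the difference by label number given below. All genes include those under the background level, above which 70.0% of them lay. The highest correlations with the mean of the other members were those of Ndufa4 (0.87), Sdhd (0.82) and Atp5o (0.82). The lowest were those of Sdha (-0.38), Ndufa10 (-0.33) and Cox6b2 (-0.18), and Ndufs1 (-0.10) and Atp5b (0.003) also lay near or below 0.

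Calls among the members were found between HFD arrays of different label numbers. The 12 arrays numbered 5 to 8 differed from the 12 numbered 1 to 4, fitted with HFD time as a covariate, in 26 of 81 members (8 higher and 18 lower), where 22.7% of all genes were called (10.5% higher and 12.2% lower). At an unadjusted p under 0.05 there were 40 members and 35.1% of all genes. After median centring 13 were higher and 9 lower. The labels do not say what the numbers stand for. The direction was the same at 7, 14 and 21 days for 46 of the 81 members and 8774 of the 17989 genes. It was so for all 26 called members and 3945 of the 4089 genes called, which the fit over the 3 times had picked. For 0 members did the difference vary with time past the threshold (9 at an unadjusted p under 0.05). Malat1, an RNA that stays in the nucleus, was at 5.76 to 7.41 on the arrays numbered 1 to 4 and at 8.61 to 9.57 on those numbered 5 to 8. With its level as a covariate 0 members were called (9 of all genes were), and since its ranges in the number groups do not overlap, its level and the numbers cannot be told apart in these arrays. The mean of the acinar markers was 3.44 to 7.80 and 3.33 to 9.31, and with it as a covariate 23 of the 26 remained called.

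Complex I held calls in both directions, as did all genes. Ndufs1 was at 7.61 to 8.48, 7.90 to 8.14 and 7.23 to 8.11 on the arrays numbered 1 to 4 of 7, 14 and 21 days, and at 8.49 to 8.96, 8.48 to 8.83 and 8.77 to 8.97 on those numbered 5 to 8. All 12 arrays numbered 5 to 8 lay above all 12 others, by 0.82 ± 0.11 (SE, adjusted p = 5.72e-06 in limma). The accessory subunits Ndufa9 (0.39 ± 0.08), Ndufa12 (0.35 ± 0.07), Ndufc1 (0.33 ± 0.10) and Ndufa5 (0.30 ± 0.10) were also higher. Ndufb7 (-0.47 ± 0.08), Ndufa11 (-0.44 ± 0.07), the core subunit Ndufv1 (-0.40 ± 0.09) were lower, as were Ndufa8, Ndufs6, Ndufc2, Ndufb10 and the core subunit Ndufs3, from -0.36 to -0.23. Thus 5 of the 31 members of complex I were called higher and 8 lower within the same arrays, beside 10.5% and 12.2% of all genes. Among the HFD arrays numbered 1 to 4 alone, Ndufs1 was below controls by -0.72 after 21 days (adjusted p = 0.0267 in limma) and Ndufa12 by -0.40 (adjusted p = 0.0346). Among those numbered 5 to 8 alone, Ndufa11 was below controls by -0.44 (adjusted p = 0.0143). The other probe set of Ndufa11, with a mean of 6.67 beside 6.81, followed the one used only in part (r = 0.54).

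In the other complexes Cox7a2, the liver isoform of its subunit, was higher by 0.57 ± 0.10 (adjusted p = 0.000173 in limma) and Cox7b by 0.30 ± 0.09. Cox4i1 of the same complex was lower on each of the 12 arrays numbered 5 to 8 than on any of the others, by -0.52 ± 0.07 (adjusted p = 2.13e-05). The levels of Cox4i1 were 8.51 to 8.86, 8.48 to 9.03 and 8.43 to 8.92 on the arrays numbered 1 to 4 against 8.12 to 8.33, 8.08 to 8.27 and 7.88 to 8.25. Cox6b1 and its testis isoform Cox6b2 were lower by -0.23 and -0.25. Uqcr11 of complex III was lower by -0.50 ± 0.12 and Sdhc of complex II by -0.35 ± 0.06, with the assembly factor Sdhaf1 at -0.24 ± 0.07. In the ATP synthase Atp5b was higher by 0.15 ± 0.06, and Atp5k, Atp5d, Atp5j and Atp5j2 were lower by -0.35, -0.29, -0.26 and -0.25. Of the 14 regulators 5 were called higher and 4 lower (10.5% and 12.2% of all genes), from -0.28 to 0.71 (Tfam, the packaging factor of mitochondrial DNA), and after median centring 5 higher and 2 lower. Both mitochondrially encoded genes were called higher (ND3 by 0.27, COX2 by 0.23), and after quantile normalization ND3 alone. Macrophage markers differed as well, with 5 of 11 called higher and 1 lower, and their part in the members' values was not tested.

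**Figure D4:**
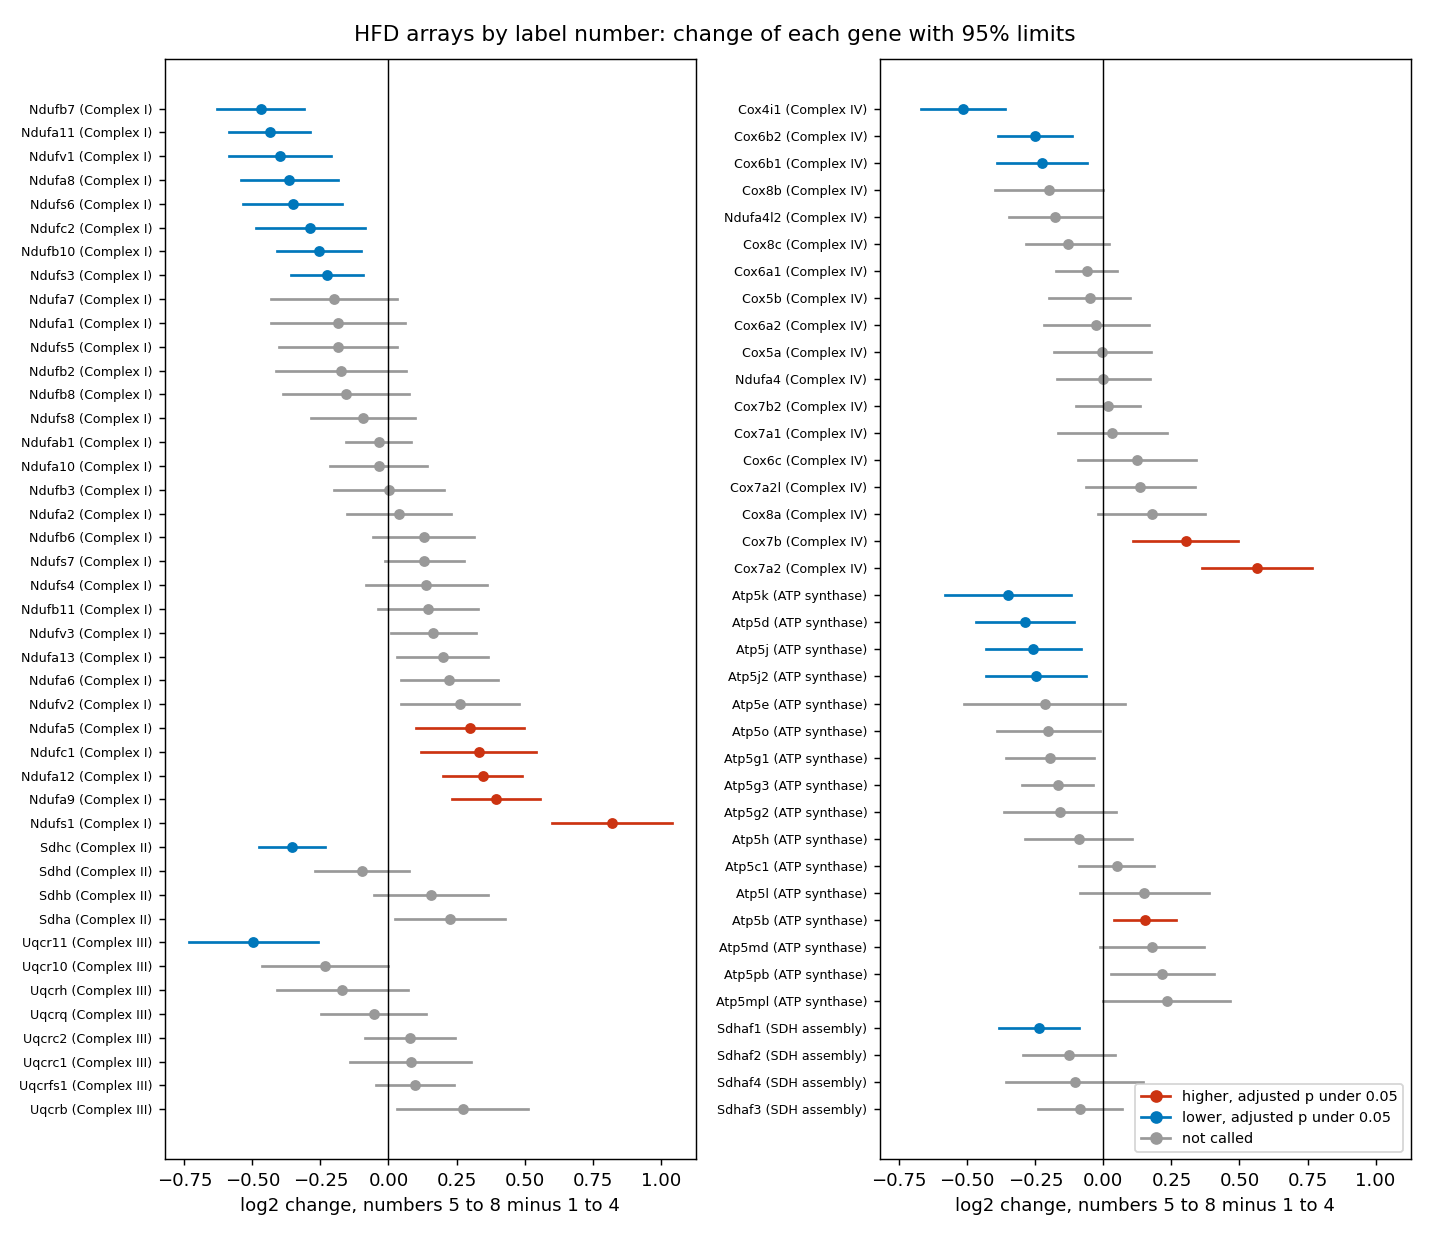
Log2 change between HFD arrays numbered 5 to 8 and 1 to 4 for each of the 81 genes with 95% limits, ordered within complexes. Red (8 genes) and blue (18 genes) mark an adjusted p under 0.05, and both colours occur within complex I, complex IV and the ATP synthase.

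The controls, which this split did not use, were set against Malat1 as well. Among the 18 controls Malat1 ranged from 5.49 to 9.54, and a limma fit of each gene on it called 6 of 81 members (4 higher and 2 lower with more Malat1) and 7.76% of all genes (3.32% higher and 4.44% lower). At an unadjusted p under 0.05 there were 23 members and 24.9% of all genes. After median centring 4 were called, all of them higher. Per log2 unit of Malat1, Ndufs1 rose by 0.23 ± 0.05 (SE, adjusted p = 0.00897), Ndufa5 by 0.21 ± 0.05, Cox7a2 by 0.18 ± 0.04 and Ndufa13 by 0.12 ± 0.03, and Ndufv1 (-0.15 ± 0.05) and Sdhc (-0.14 ± 0.04) fell. Cox4i1 had -0.13 ± 0.04 and was not called (adjusted p = 0.0623). Of the 26 members that differed by number in the HFD arrays, 25 had a slope of the same sign in the controls, the exception being Sdhaf1. The share was 96.2%, beside 95.9% of all genes that differed by number. Over all 81 members it was 68 (84%), and over all 17989 genes 76.2%. In the controls themselves, arrays 10 to 18 against 1 to 9 gave 0 called members (0% of all genes) and 11 at an unadjusted p under 0.05 (8.52% of all genes). The number of members called against Malat1 was 13 without control 5 and 3 without control 10, 11, 14 or 16. Cox7a2, Ndufa5 and Ndufs1 were called with any 1 control left out.

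**Figure D5:**
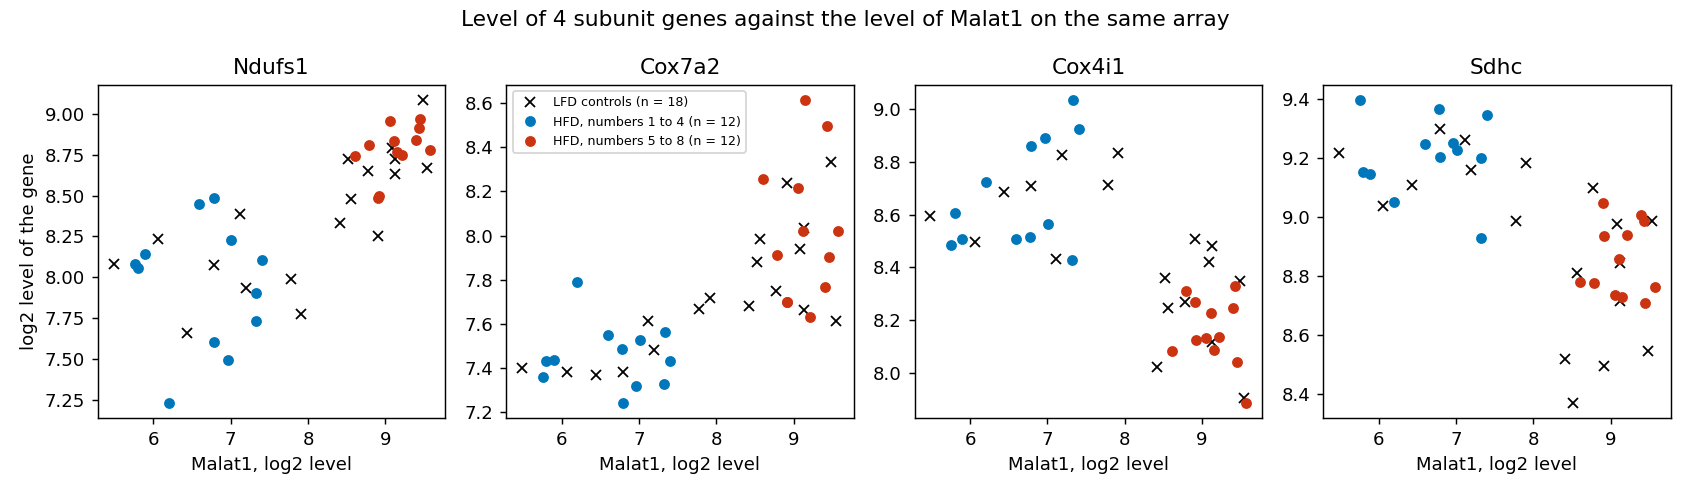
Log2 level of Ndufs1, Cox7a2, Cox4i1 and Sdhc against that of Malat1 on the same array, for 18 LFD controls (crosses) and HFD arrays numbered 1 to 4 (blue, n = 12) and 5 to 8 (red, n = 12). HFD arrays fall below 7.41 or above 8.61 of Malat1, and controls span 5.49 to 9.54.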

How the data were processed

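Liver RNA of 42 samples was hybridised to Affymetrix arrays. The deposited values are log2 levels, made by the authors with RMA in Affymetrix Expression Console 1.1, per the submitters' processing notes. No genome build was needed for these levels, and the one used for the probes is not stated in the labels. Of 32624 probe sets, 1 had values only on the controls numbered 1 to 9 and was left out. Symbols came from the platform annotation (19559 probe sets with 1 symbol, 1469 with several and 11596 with none listed); 19474 Entrez identifiers matched RefSeq and 0 symbols changed. Array medians over genes were 3.39 to 3.57, so no scaling was added.

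All arrays entered 1 fit of 4 groups in limma 3.58.1 (R 4.3.3), 2-sided, with p adjusted by Benjamini-Hochberg over 17989 genes and a threshold of 0.05. Differences are of log2 means. The number split was fitted in the 24 HFD arrays with time as a covariate. The fit on Malat1 in controls, the number group as a covariate of the diet fit and the calls of other lists under other scalings were added after the data were seen. Fits were tested on simulated data. Alternatives were quantile normalization, median centring, a filter on dim genes, the mean of probe sets, array weights, a replicate block, parts of the arrays, covariates and leaving out each array.

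Members and lists were chosen with earlier results of these data known. Genes were named by a rule: members called in a comparison (the 4 largest each way above 8), the 3 largest rises and falls against controls at each time, a panel of core subunits and tissue isoforms, and up to 3 called genes of other lists. Others named among the called members, and those named for correlation or spread, were chosen after their values were seen. Number of arrays limits precision. Probe sets of near-identical genes (Atp5g1, Atp5g2, Atp5g3) can share signal.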

Additional observations from a re-analysis of the deposited data

Results flagged for a closer look

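Each group of 8 HFD arrays was searched for an array far from the rest in 23 named members, 69 groups in all, of which chance gives about 1 in 20, and 4 stood out. Atp5mpl was at 9.94 on array 6 of 21 days, where the others lay between 9.03 and 9.44. On the same array Ndufv1 was at 7.45 against 8.30 to 8.89, and without it the number difference of Ndufv1 was -0.33 in place of -0.40 and stayed called (adjusted p = 0.00122 in limma). Ndufa13 was at 6.54 on array 6 of 14 days against 5.88 to 6.18. Ndufa5 was at 7.06 on array 5 of 7 days against 5.998 to 6.44.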

How the results depend on the processing

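The 0 calls on the diet held in every fit that left out 1 array, and after 14 days in every alternative run. After 7 days 2 members were called with array weights and 1 with a replicate block, with controls 1 to 9 alone or with HFD arrays 1 to 4 alone. After 21 days 2 were called with HFD arrays 1 to 4 alone and 1 with arrays 5 to 8 alone, and the F test over 4 groups called 1 with either. The shares of all genes called in these alternative fits are not given here, so the counts are not a result about the members. Pairing by replicate number was not taken as given, since in no 2 groups did all 8 same-numbered pairs correlate above 0.1 (7 of 8 at 14 and 21 days, the lowest at 0.098). Same-numbered HFD arrays did correlate more than others, with medians of 0.17, 0.12 and 0.25 beside -0.04, 0.01 and -0.07. Same-numbered arrays always lie in the same number group, and the other pairs include pairs across the number groups. Pairing and the number difference therefore cannot be told apart in these medians. With the replicate block the member called after 7 days was Ndufs5 (0.68, adjusted p = 0.041 in limma), and of the calls of Gpd2 and Prodh that of Gpd2 after 7 days alone held (0.92, adjusted p = 0.0244). Numbers above 8 occur only in controls, so the diet contrasts of the block fit rested on controls 1 to 8. The block fit is therefore not a separate check from the fit with controls 1 to 9 alone, and its lost calls cannot be tied to pairing. Changes of uncalled members turned sign with part of the arrays: Ndufa6 after 7 days (0.048, arrays 5 to 8), Sdhaf4 after 14 days (-0.057, arrays 5 to 8), Ndufs6 after 14 days (0.039, arrays 1 to 4) and 21 days (0.017, arrays 1 to 4), Ndufs4 after 21 days (0.034, arrays 5 to 8) and Ndufs5 after 21 days (-0.011, controls 10 to 18). The number difference kept 21 to 27 calls with 1 array left out, and with Malat1 as a covariate had 0 and a median of -0.28. Against Malat1 in controls the count was 3 to 13 with 1 array left out. The causes were not tested.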
